A study of Mus musculus with 8 samples.

Results

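The proteasome subunits and their partners were taken as every protein-coding gene of the deposited table named Psma, Psmb, Psmc, Psmd, Psme, Psmf or Psmg followed by a number, which gave 50 members among 43628 genes. By role, 14 members form the constitutive core, 17 the regulatory particle, and 3 (Psmb8, Psmb9 and Psmb10) are the inducible core subunits of the immunoproteasome. The others are activators, an inhibitor, assembly chaperones, forms used in testis or thymus, and Psmc3ip, which shares the name but is a co-factor of meiotic recombination and no proteasome subunit. The members were read in quadriceps muscle of male mice aged 8 weeks from 2 models of muscular dystrophy and a wild type. The mdx mice (C57BL/10ScSn-Dmdmdx/J) carry a mutation of the dystrophin gene Dmd, and 15 of them were combined into 3 RNA pools. The dy2J/dy2J mice (C57BL/6J Lama2dy-2J) carry a mutation of the laminin alpha-2 gene Lama2, and 11 of them were combined into 2 pools. The WT mice (C57BL/10ScSnJ) were 14 animals in 3 pools. The dy2J mice therefore differ from both other groups in strain background as well as in Lama2, and the contributions of strain and mutation cannot be told apart. Each pool gave 1 library of total RNA, so that the spread given is between pools of 4 to 6 animals and not between single animals.

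The proteasome is the protease that degrades most ubiquitin-tagged proteins. Its barrel-shaped core has outer rings of alpha subunits, which gate the entrance, and inner rings of beta subunits, among which Psmb5, Psmb6 and Psmb7 carry the proteolytic sites. The regulatory particle caps the core, recognises ubiquitin and unfolds the substrate with its ring of ATPases. Interferon signalling induces Psmb8, Psmb9 and Psmb10, which replace Psmb5, Psmb6 and Psmb7 in newly made cores and shift the peptides produced for display on MHC class I. It also induces Psme1 and Psme2, which form the PA28 activator. In muscle, the proteasome is best known for breaking down myofibrillar protein during atrophy.

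The labels and the tissue were checked first. Dmd lay between 3.98 and 5.50 FPKM (sequenced fragments scaled by transcript length and library size) in the mdx pools, against 27.7 to 31.6 FPKM in the WT pools. Lama2 lay at 5.07 and 5.31 FPKM in the dy2J pools, against 9.34 to 9.43 FPKM in the WT pools. The 10 mature fibre markers, among them Ckm and Actn3, summed to 69493 to 107466 FPKM in mdx pools, 61867 and 68530 FPKM in dy2J pools and 99921 to 120585 FPKM in WT pools, and none was at 0. Read depth is unknown, since the table holds FPKM and no counts. The summed FPKM of a library ran between 556218 and 785513, both ends being dy2J pools.

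Promoter sequence is shown for 4 members chosen by hand, 3 of them catalytic. Stretches of Psma5, Psmg3 and Psmg4, which also passed the test in a comparison, were available but are not shown. Psmb10 is an inducible subunit that was higher in both models. Psmb5 and Psmb6 are constitutive catalytic subunits that carry the same short motif, of which Psmb5 alone passed the test in mdx. Psme4 was the one member lower in both models. The stretches lie within the 250 bases before each RefSeq start site (build GRCm38.p6), are given 5′ to 3′ on the strand of the gene, and stop at the first annotated exon of the gene, or at the start site where no exon reaches into the window. Capitals mark TGACNNNGC, the core of the antioxidant response element that factors of the Nfe2l1 and Nfe2l2 family bind.
Psmb10, chr8:105938445-105938642, minus strand: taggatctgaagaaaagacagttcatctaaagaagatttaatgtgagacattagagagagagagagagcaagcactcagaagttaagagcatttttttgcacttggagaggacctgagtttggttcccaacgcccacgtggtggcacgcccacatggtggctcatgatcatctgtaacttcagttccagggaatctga
Psmb5, chr14:54618023-54618245, minus strand: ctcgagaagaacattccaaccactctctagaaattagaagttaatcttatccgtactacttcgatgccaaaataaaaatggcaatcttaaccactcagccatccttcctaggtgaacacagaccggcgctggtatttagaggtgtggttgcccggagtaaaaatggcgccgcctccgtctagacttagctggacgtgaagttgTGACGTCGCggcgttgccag
Psmb6, chr11:70525107-70525356, plus strand: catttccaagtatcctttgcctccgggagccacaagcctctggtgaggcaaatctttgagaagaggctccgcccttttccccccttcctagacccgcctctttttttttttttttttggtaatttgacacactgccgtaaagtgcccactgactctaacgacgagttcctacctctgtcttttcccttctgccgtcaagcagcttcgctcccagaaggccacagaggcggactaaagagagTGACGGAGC
Psme4, chr11:30771525-30771725, plus strand: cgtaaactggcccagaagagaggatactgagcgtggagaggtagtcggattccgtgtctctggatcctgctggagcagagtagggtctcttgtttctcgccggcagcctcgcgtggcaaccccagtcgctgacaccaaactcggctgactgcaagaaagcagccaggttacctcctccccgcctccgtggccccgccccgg

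Promoters were found in RefSeq for 42 of the 50 members, 45 windows in all, and were searched on both strands. TGACNNNGC stood in 5 of the 45 member windows (11.1%), against 10.2% of all 32851 windows. The 5 genes are Psmb5, Psmb6, the ATPase gene Psmc6, the regulatory particle gene Psmd12 and the chaperone gene Psmd9. The first base of the motif lies 47 bases before the start site in Psmb5 and 9 bases before it in Psmb6. A form of the interferon-stimulated response element, GAAA followed by any 2 bases and GAAA again, stood in 3 member windows (6.67%), those of Psmb3, Psmd4 and Psmd9, against 2.98% of all windows. CCAAT, the box bound by NF-Y, stood in 15 member windows (33.3%), against 33.8% of all windows. No match of one motif overlapped a match of another, and a match describes the letters of the window alone. The windows of Psmb8 and Psmb9 lay wholly within annotated exons (250 of 250 bases), so no stretch before an exon could be shown. Of the Psme1 window, 139 bases were exonic. A missing match in these windows does not describe the sequence upstream of those genes.

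The inducible subunits stood above WT in both models. Psmb8, Psmb9 and Psmb10 were higher in both models, by 0.61 to 1.19 on the log2(FPKM + 1) scale in mdx and by 0.54 to 0.81 in dy2J, while the PA28 genes Psme1 and Psme2 did not pass the test in either. Of all genes tested, 23.9% were higher in mdx and 11.5% were higher in dy2J. Fold changes on this scale understate the change of genes at a few FPKM. Calls use limma adjusted p under 0.05 over the 12830 genes that reached 1 FPKM in 2 or more libraries.

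Psmb8 (ENSMUSG00000024338, chr17:34197721-34201454), the inducible counterpart of Psmb5, had 9.92, 14.5 and 10.8 FPKM in the mdx pools and 7.20 and 7.26 FPKM in the dy2J pools, against 4.07, 4.96 and 4.63 FPKM in the WT pools. The 3 groups did not overlap, with mdx highest and mdx pool 2 above the other mdx pools. The log2 fold change was 1.19 ± 0.14 (SE) in mdx against WT (limma adjusted p = 0.000627, n = 3 and 3) and 0.57 ± 0.15 in dy2J against WT (limma adjusted p = 0.0329, n = 2 and 3). The dy2J call for Psmb8 did not hold when any 1 of the dy2J or WT pools was left out (limma adjusted p of 0.0584 to 0.166), nor without an expression minimum (0.0755) or with quantile normalization (0.0562). The dy2J call for Psmb8 was also lost with the replicate block. Against mdx, Psmb8 in dy2J differed by -0.62 ± 0.15 (limma adjusted p = 0.0508). This difference was called without mdx pool 1 (limma adjusted p = 0.0291), with values of 0 as missing (0.0457) and at a mean of at least 5 FPKM (0.0499).

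Psmb9 (ENSMUSG00000096727, chr17:34181988-34187764), the inducible counterpart of Psmb6, had 9.93, 9.63 and 10.7 FPKM in the mdx pools and 6.80 and 8.46 FPKM in the dy2J pools, against 3.74, 4.42 and 3.59 FPKM in the WT pools. Again all mdx pools lay above both dy2J pools, and these above all WT pools. The log2 fold change was 1.18 ± 0.11 in mdx against WT (limma adjusted p = 0.000304) and 0.81 ± 0.12 in dy2J against WT (limma adjusted p = 0.00422). It was -0.37 ± 0.12 in dy2J against mdx (limma adjusted p = 0.11).

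Psmb10 (ENSMUSG00000031897, chr8:105935728-105938392), the inducible counterpart of Psmb7, had 9.03, 10.5 and 8.74 FPKM in the mdx pools and 10.0 and 7.92 FPKM in the dy2J pools, against 5.89, 5.65 and 5.86 FPKM in the WT pools. The pools of the models overlapped each other and lay above all WT pools. The log2 fold change was 0.61 ± 0.11 in mdx against WT (limma adjusted p = 0.00345) and 0.54 ± 0.12 in dy2J against WT (limma adjusted p = 0.0173). The dy2J call for Psmb10 did not hold without dy2J pool 1 (limma adjusted p = 0.166) or without WT pool 2 (0.0554). With the replicate block the dy2J call for Psmb10 was also lost. The authors' deposited table gives q = 0.000749 for Psmb8, 0.0375 for Psmb9 and 0.0539 for Psmb10 in mdx against WT. In dy2J against WT it gives 0.222, 0.256 and 0.17 for the same genes.

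Neighbouring genes share ground with these loci, and no source used here says whether strand entered the counting. Psmb8 overlaps the antisense gene Gm20496 over 2139 bases, which had 1.90, 3.77 and 2.61 FPKM in the mdx pools and 1.87 and 2.18 FPKM in the dy2J pools, against 0.99, 1.26 and 0.65 FPKM in the WT pools. Its values were lower than those of Psmb8 in every pool, and reads of the pair may not be separable. Psmb9 overlaps 212 bases of Tap1, the peptide transporter gene that lies head to head with it. Psmb10 overlaps the antisense gene Gm16156 over 2665 bases, which stayed at or under 0.25 FPKM.

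**Figure D1:**
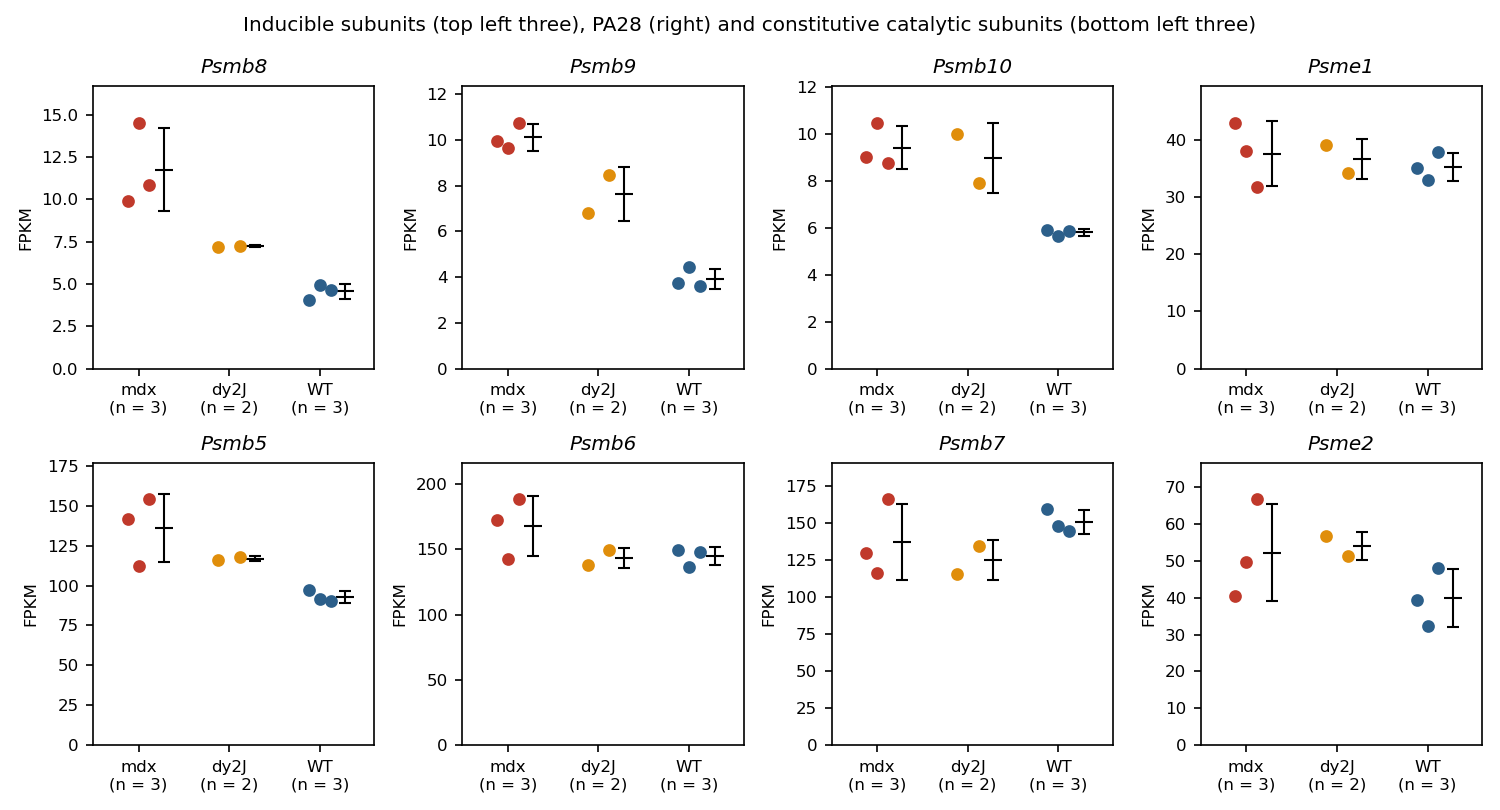
FPKM of the inducible core subunits, their constitutive counterparts and the PA28 genes in each pool (points) with the mean and SD per group (bars), every axis starting at 0. All mdx and dy2J points of Psmb8, Psmb9 and Psmb10 lie above the WT points, whereas those of Psmb6 and Psme1 overlap the WT points and the dy2J points of Psmb7 lie below them.

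The PA28 genes showed no called difference. Psme1 (ENSMUSG00000022216, chr14:55578123-55581529), the alpha subunit, had 43.0, 38.1 and 31.7 FPKM in the mdx pools and 39.2 and 34.2 FPKM in the dy2J pools, against 35.1, 32.9 and 37.8 FPKM in the WT pools. The groups overlapped, and the log2 fold change was 0.08 ± 0.13 in mdx (limma adjusted p = 0.646) and 0.05 ± 0.14 in dy2J (limma adjusted p = 0.816). Psme2 (ENSMUSG00000079197, chr14:55587441-55591113), the beta subunit, had 40.6, 49.6 and 66.7 FPKM in the mdx pools and 56.7 and 51.4 FPKM in the dy2J pools, against 39.3, 32.4 and 48.2 FPKM in the WT pools. Both dy2J pools lay above the WT pools and the mdx pools overlapped them, with log2 fold changes of 0.37 ± 0.20 in mdx (limma adjusted p = 0.172) and 0.44 ± 0.22 in dy2J (limma adjusted p = 0.184). Of the 50-base stretches in Psme2 transcripts, 28.3% are shared with its copy Psme2b, which was at 0.29 to 1.14 FPKM, so reads may be divided between them.

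Of the constitutive catalytic subunits, Psmb5 was higher in mdx, and no other call was made in either model. Psmb5 (ENSMUSG00000022193, chr14:54614120-54617995), the chymotrypsin-like subunit, had 142, 112 and 154 FPKM in the mdx pools and 116 and 118 FPKM in the dy2J pools, against 97.4, 91.4 and 90.1 FPKM in the WT pools. Every pool of either model lay above every WT pool. The log2 fold change was 0.53 ± 0.13 in mdx (limma adjusted p = 0.011), a call, and 0.33 ± 0.14 in dy2J (limma adjusted p = 0.132), not a call. In dy2J it became a call with quantile normalization (limma adjusted p = 0.0284), with the compared groups alone (0.0199) and without mdx pool 2 (0.0251). In GENCODE M21 transcripts, 46.8% of the 50-base stretches of Psmb5 also occur in Gm3375, so the level of Psmb5 is uncertain.

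Psmb6 (ENSMUSG00000018286, chr11:70525367-70527858), the caspase-like subunit, had 173, 143 and 188 FPKM in the mdx pools and 138 and 149 FPKM in the dy2J pools, against 150, 137 and 148 FPKM in the WT pools. The groups overlapped, and the log2 fold change was 0.20 ± 0.12 in mdx (limma adjusted p = 0.219) and -0.01 ± 0.14 in dy2J (limma adjusted p = 0.966). Psmb7 (ENSMUSG00000026750, chr2:38588036-38644087), the trypsin-like subunit, had 130, 116 and 166 FPKM in the mdx pools and 115 and 134 FPKM in the dy2J pools, against 160, 148 and 144 FPKM in the WT pools. Both dy2J pools lay below the WT pools and the mdx pools overlapped them, with log2 fold changes of -0.15 ± 0.14 in mdx (limma adjusted p = 0.452) and -0.27 ± 0.16 in dy2J (limma adjusted p = 0.258).

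Set against their counterparts within each pool, the inducible subunits remained minor transcripts in all groups. The FPKM of Psmb8 was 7.01, 12.9 and 7.03% of that of Psmb5 in the mdx pools and 6.22 and 6.16% in the dy2J pools, against 4.18, 5.43 and 5.14% in the WT pools. Psmb9 stood at 5.75, 6.75 and 5.70% of Psmb6 in the mdx pools and 4.92 and 5.67% in the dy2J pools, against 2.496, 3.24 and 2.43% in the WT pools. Psmb10 stood at 6.95, 9.01 and 5.28% of Psmb7 in the mdx pools and 8.68 and 5.89% in the dy2J pools, against 3.69, 3.83 and 4.07% in the WT pools. For each pair the lowest pool of either model lay above the highest WT pool, and mdx pool 2 was the highest mdx pool. The 3 inducible genes made up 6.76 ± 1.56% of the summed FPKM of the 6 catalytic genes in mdx (SD, n = 3) and 5.83 ± 0.384% in dy2J (n = 2), against 3.55 ± 0.293% in WT (n = 3). No test was run on these shares, for which an exact permutation test between groups of this size cannot give p under 0.1.

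**Figure D2:**
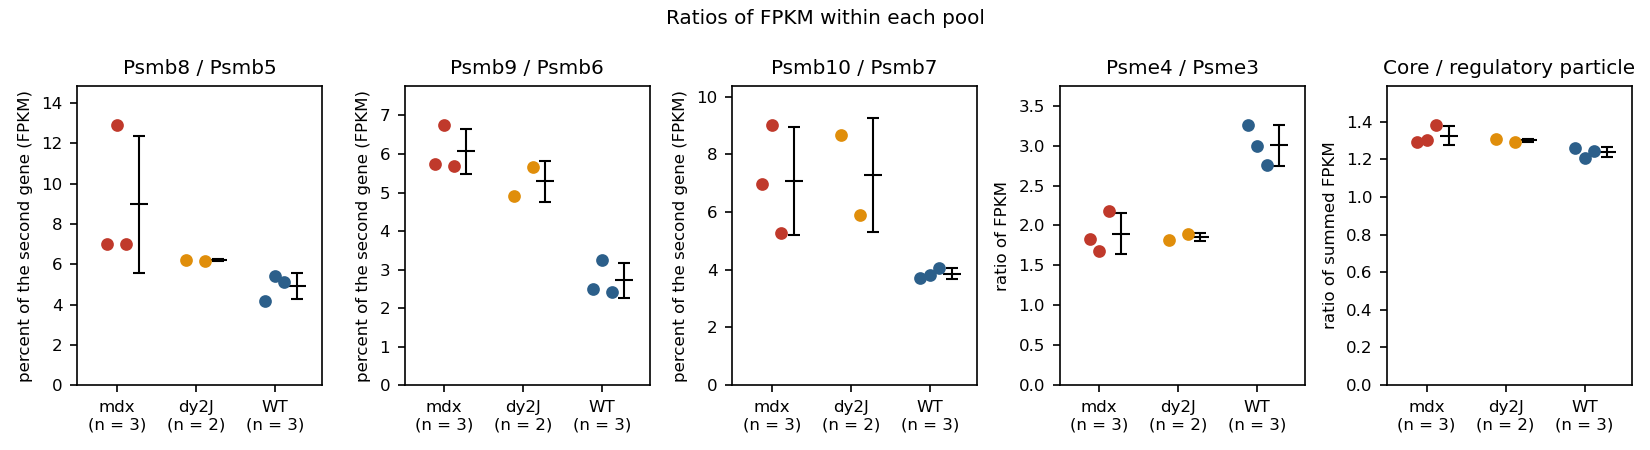
Ratios of FPKM within each pool (points) with the mean and SD per group (bars): each inducible subunit as a percent of its constitutive counterpart, Psme4 relative to Psme3, and the summed core relative to the summed regulatory particle, every axis starting at 0. The 3 inducible subunits stand higher and Psme4 lower in all mdx and dy2J pools than in any WT pool.

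Markers of leukocytes and macrophages moved in the same direction as the inducible subunits. Of 12 such genes, 11 were higher in mdx, with a median log2 fold change of 2.05, and 9 were higher in dy2J, with a median of 1.03. Over all genes tested, 23.9% were higher in mdx and 11.5% in dy2J. The summed level of the 12 markers was 728, 1520 and 916 FPKM in the mdx pools and 492 and 416 FPKM in the dy2J pools, against 150, 182 and 164 FPKM in the WT pools. The pool with the highest sum, mdx pool 2, also had the highest Psmb8 and Psmb10 but the lowest Psmb9 of the mdx pools, and none of the 12 markers was at 0. The 11 markers of T, NK and B cells summed to 4.10 to 5.54 FPKM in mdx pools and 3.23 and 5.65 FPKM in dy2J pools, against 1.38 to 2.54 FPKM in WT pools, with Trac at 0 in every pool. Of these 11, Cd4 alone was expressed enough to be tested and was higher in mdx. Fibroblast markers were higher for 7 of 8 genes in mdx and 6 of 8 in dy2J. Markers of regenerating fibres were higher for 8 of 8 in mdx and 7 of 8 in dy2J. Of 8 endothelial markers, 4 were lower in mdx and 2 in dy2J, where 12.8% and 9.04% of all genes tested were lower. The part of these cell populations in the inducible subunits was not tested, and in bulk muscle fewer cells of a type and less RNA per cell cannot be told apart.

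The genes of MHC class I antigen processing, which act on the peptides the proteasome makes, were measured beside the inducible subunits. Of 12 listed genes, 10 were higher in mdx, with a median log2 fold change of 0.68, against 0.07 over all genes tested. In dy2J 7 were higher, with a median of 0.64, against 0.01 over all genes tested. The share of all genes tested that were higher was 23.9% in mdx and 11.5% in dy2J. H2-D1, a class I heavy chain, had 109, 152 and 134 FPKM in the mdx pools and 97.4 and 77.1 FPKM in the dy2J pools, against 42.1, 52.9 and 56.7 FPKM in the WT pools. All pools of both models lay above all WT pools, with log2 fold changes of 1.36 in mdx (limma adjusted p = 0.000744) and 0.78 in dy2J (limma adjusted p = 0.0208). In mdx the next largest were H2-K1 at 1.17, Tap1 at 0.96 and B2m, the class I light chain, at 0.93. In dy2J, Pdia3, a chaperone of the peptide-loading complex, was at 0.91 and H2-K1 at 0.86, both above H2-D1, and B2m was at 0.75 (limma adjusted p = 0.0446). Tap1, whose gene overlaps Psmb9, was at 0.31 in dy2J (limma adjusted p = 0.226).

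Across the whole family, 47 members were tested, each with at least 1.51 FPKM in all 8 pools. In mdx against WT 7 members were higher (Psmb8, Psmb9, Psmb10, Psmb5, Psma5, Psmg3 and Psmc3ip) and 1 was lower (Psme4), so 17.0% were called, against 36.7% of all genes tested. In dy2J against WT 4 were higher (Psmb8, Psmb9, Psmb10 and Psmg3) and Psme4 was lower, 10.6% of the members, against 20.6% of all genes tested. In dy2J against mdx 1 member, Psmg4, was lower, 2.13% of the members, against 6.43% of all genes tested. No member was higher there by limma, where 2.77% of all genes tested were higher, and 5 members had an unadjusted limma p under 0.05. The pools did not overlap for 13 of the 47 members in mdx against WT, for 23 in dy2J against WT and for 9 in dy2J against mdx. The same held for 50.4%, 60.8% and 41.9% of all genes tested. The median log2 fold change over the tested members was 0.11 in mdx, -0.01 in dy2J and -0.10 in dy2J against mdx. Over all genes tested the same medians were 0.07, 0.01 and -0.08. The authors' deposited table has q under 0.05 for 5 tested members in mdx against WT, where 26.9% of all genes tested had such a q, and for 2 in dy2J against WT, Psme4 and the chaperone gene Psmd5, where 19.2% had one. The 3 members not tested were Psma8, a testis form of an alpha subunit, at up to 0.21 FPKM, Psmb11, the catalytic subunit of the thymus, at up to 0.15 FPKM, and Psme2b.

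**Figure D3:**
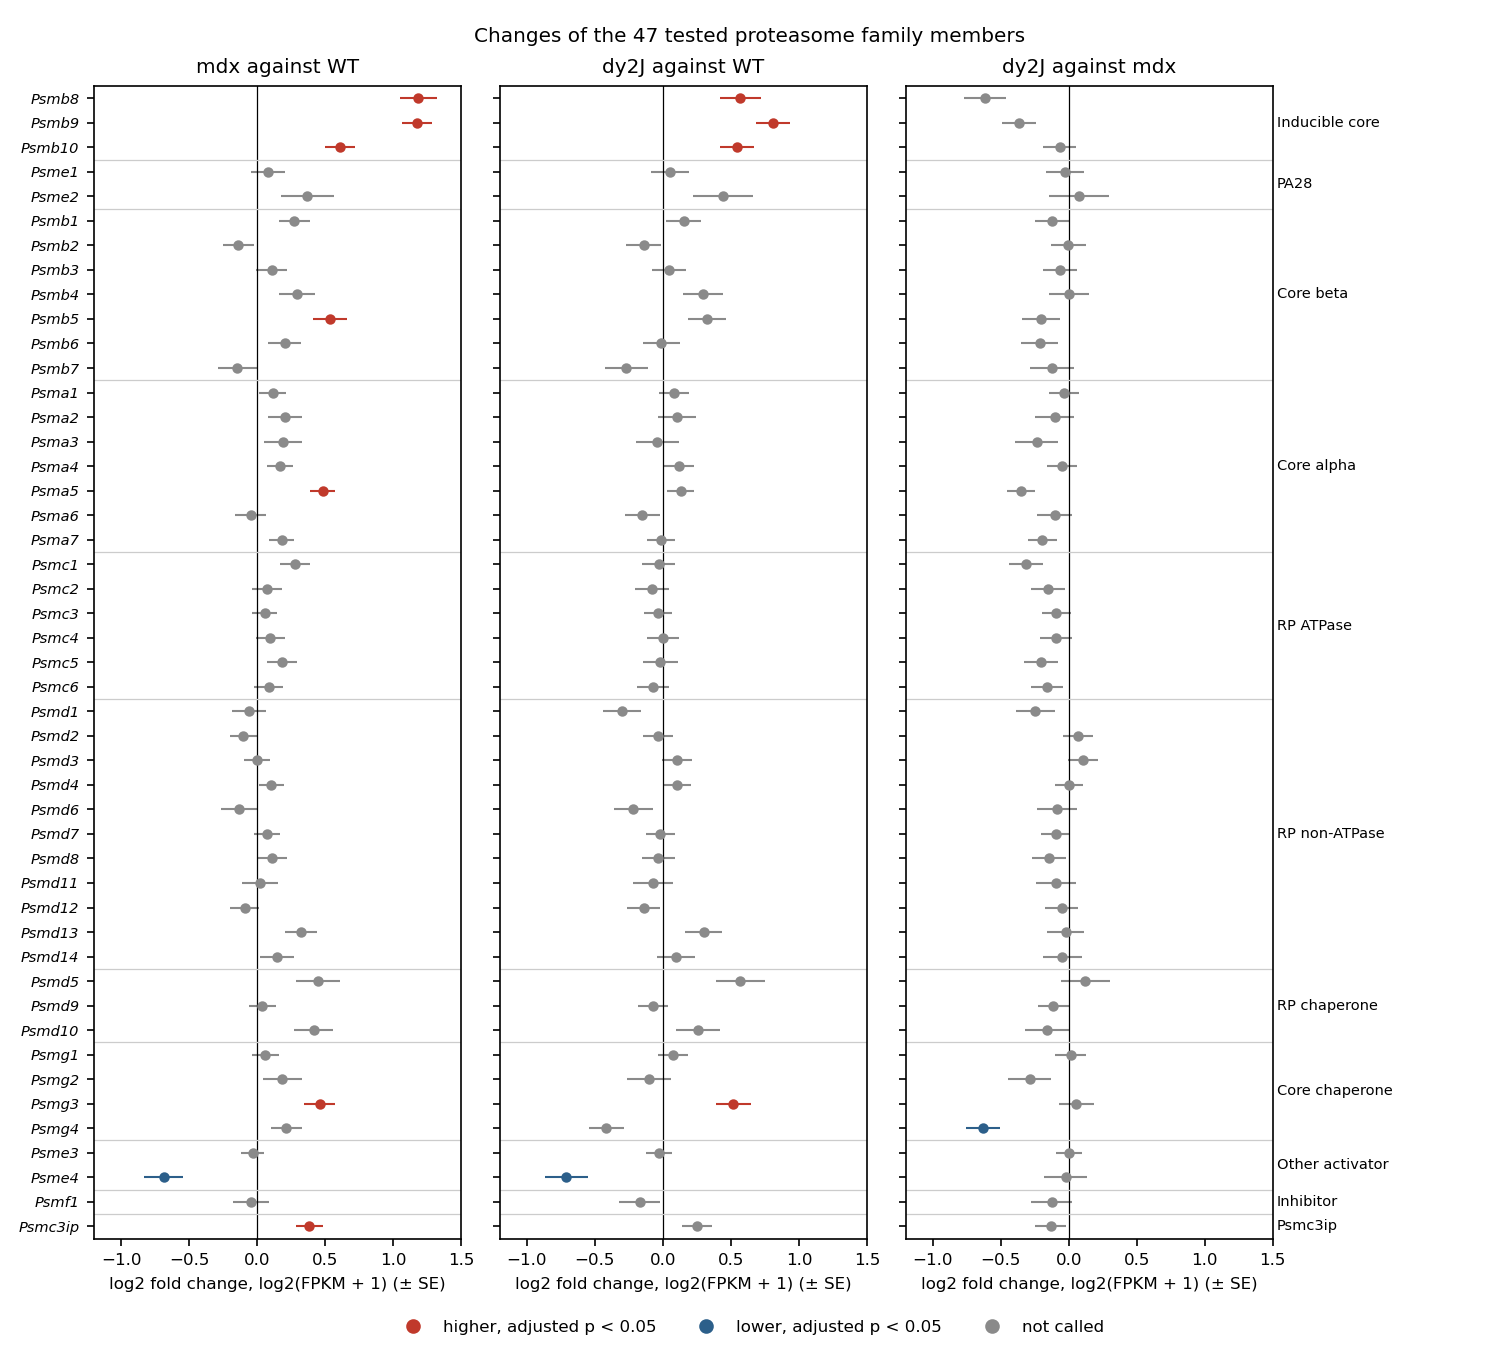
Log2 fold change on the log2(FPKM + 1) scale (points) with its standard error (lines) for the 47 tested members in 3 comparisons, grouped by role, where RP is the regulatory particle; coloured points passed limma adjusted p under 0.05. Psmb8 and Psmb9 lie farthest to the right and Psme4 farthest to the left in both comparisons with WT, and no regulatory particle subunit is coloured.

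Of the 14 constitutive core subunits, 2 were higher in mdx (14.3%), where 23.9% of all genes tested were higher. None was called in dy2J, where 20.6% of all genes tested were called. In dy2J 1 of the 14 had an unadjusted limma p under 0.05. There 0 had q under 0.05 in the authors' deposited table, against 19.2% of all genes tested. The median log2 fold change of the 14 was 0.19 in mdx, with 11 of 14 above 0, and 0.06 in dy2J. Besides Psmb5, the call was Psma5 (ENSMUSG00000068749, chr3:108256926-108279974), an alpha ring subunit. It had 34.5, 35.1 and 39.8 FPKM in the mdx pools and 27.7 and 28.9 FPKM in the dy2J pools, against 26.2, 25.7 and 25.4 FPKM in the WT pools. The 3 groups did not overlap, and the log2 fold change was 0.48 ± 0.09 in mdx (limma adjusted p = 0.00394) and 0.13 ± 0.10 in dy2J (limma adjusted p = 0.379). Of its 50-base stretches 49.1% occur in other transcripts, Gm8394 and Gm12989, so its level is uncertain, as is that of Psmb5. Among the other core members, Psmb4 was at 0.29 in mdx (limma adjusted p = 0.118) and Psmb1 at 0.27 (limma adjusted p = 0.0941).

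None of the 17 regulatory particle subunits was called by limma in any comparison. Over all genes tested, 36.7% were called in mdx against WT, 20.6% in dy2J against WT and 6.43% in dy2J against mdx. Unadjusted limma p was under 0.05 for 2 of the 17 in mdx against WT, for 0 in dy2J against WT and for 1 in dy2J against mdx. No regulatory particle subunit had q under 0.05 in the authors' deposited table. Such a q was given for 26.9% of all genes tested in mdx and 19.2% in dy2J. The 6 ATPases, Psmc1 to Psmc6, had log2 fold changes of 0.05 to 0.28 in mdx and -0.08 to 0.00 in dy2J. The 11 other subunits had log2 fold changes of -0.13 to 0.32 in mdx and -0.30 to 0.30 in dy2J. The upper end in both models was Psmd13, with 63.0 ± 8.76 FPKM in mdx and 61.8 ± 7.47 FPKM in dy2J, against 49.8 ± 1.23 FPKM in WT (limma adjusted p = 0.0654 in mdx and 0.149 in dy2J). The ubiquitin receptor Psmd4 and the deubiquitinase Psmd14 were at 0.10 and 0.14 in mdx, with limma adjusted p of 0.397 and 0.399.

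The levels of subunits that enter the particle in equal number were not equal per length of transcript. In mdx pools the constitutive core ranged between 36.5 FPKM for Psma5 and 168 FPKM for Psmb6. In dy2J pools it ranged between 28.3 FPKM for Psma5 and 165 FPKM for Psmb4, and in WT pools between 25.8 FPKM for Psma5 and 150 FPKM for Psmb7, a 5.83-fold span. The low end is uncertain, since 49.1% of the 50-base stretches of Psma5 occur in other transcripts. The next lowest core subunit in WT pools was Psma2 at 62.0 FPKM, which gives a much narrower span. The regulatory particle spanned 2.94-fold in WT pools, between 36.8 FPKM for the deubiquitinase Psmd14 and 108 FPKM for Psmd8. Summed over subunits, the core stood at 1.29, 1.30 and 1.38 times the regulatory particle in the mdx pools and 1.31 and 1.30 times in the dy2J pools, against 1.26, 1.21 and 1.25 times in the WT pools. The ratio was higher in every pool of both models than in any WT pool, and was not tested. This order depends on Psmb5, whose level is uncertain because of the sequence shared with Gm3375. With Psmb5 left out of the core sum, the mdx and WT pools overlap.

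The core and the regulatory particle varied together between pools of 1 genotype. How often the same pool was the lowest over all genes tested was not counted, so this may not be particular to them. In mdx, pool 2 was the lowest for 13 of 14 core subunits and 16 of 17 regulatory particle subunits, and pool 3 was the highest for 14 and 13 of them. When each pool was rescaled by its median ratio over genes, pool 2 stayed the lowest for 14 and 16, and pool 3 was the highest for 8 and 8. In dy2J, pool 1 was the lower for 14 of 14 and 16 of 17, as deposited and rescaled. The mature fibre markers summed to 105327, 69493 and 107466 FPKM in mdx pools 1, 2 and 3 and to 61867 and 68530 FPKM in dy2J pools 1 and 2, so the pools low in constitutive subunits were also the lowest of their group in fibre markers. The part of fibre content in this was not tested. Without mdx pool 2, 15 of the 47 members were called in mdx against WT, 14 of them higher, with Psmb1, Psmb4, Psmb6, Psmc1, Psmc5, Psmd13 and Psmg2 added. In the same fit 3863 of 12629 genes were called, a like share.

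**Figure D4:**
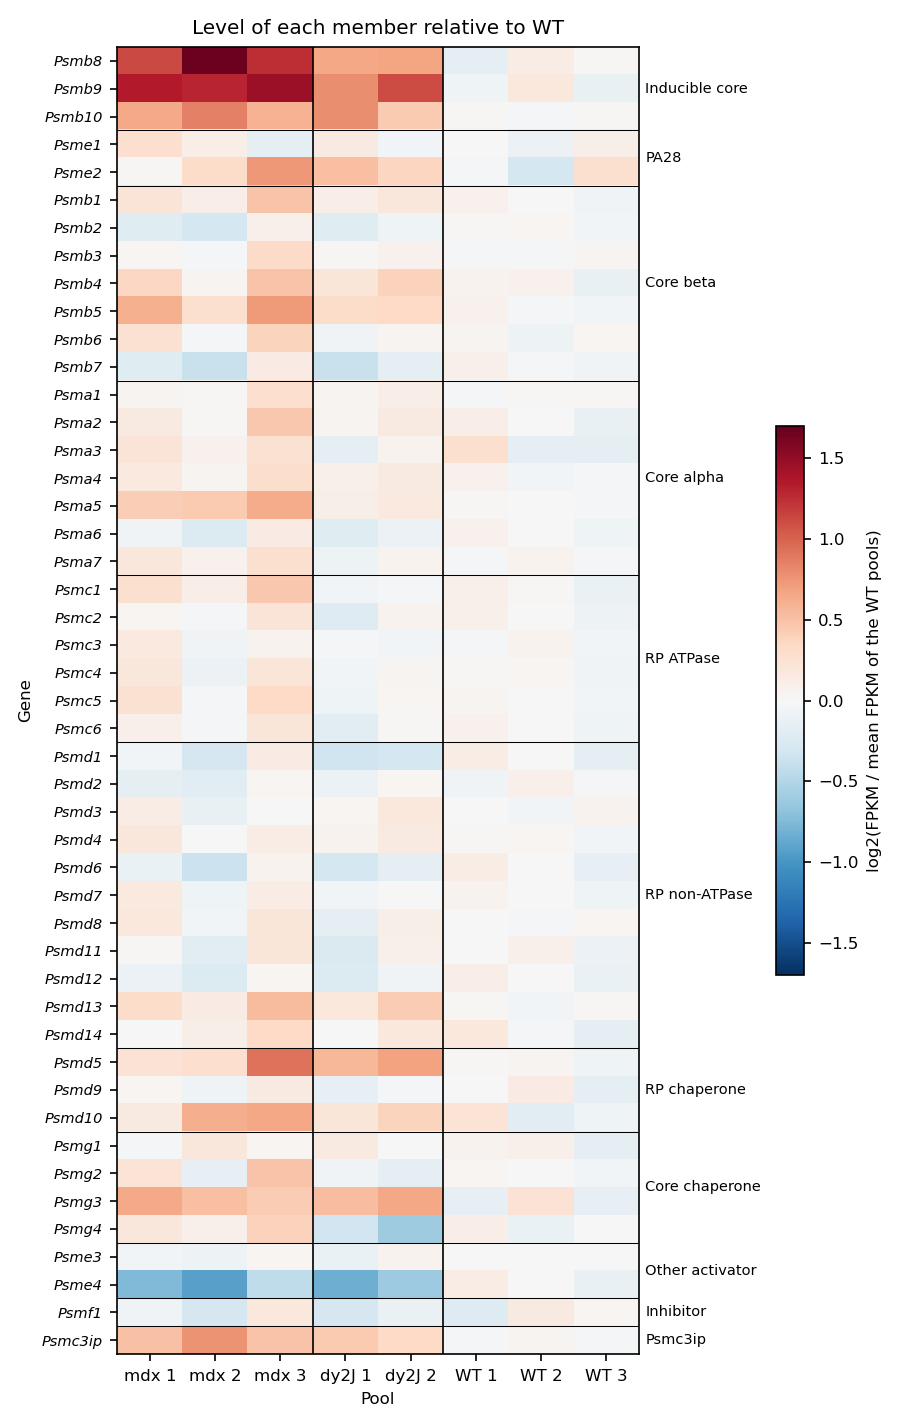
Level of each tested member in each pool as log2 of its FPKM over the mean FPKM of the WT pools (colour), with members in rows by role and pools in columns. The inducible core rows are red in all 5 mdx and dy2J pools and the Psme4 row blue, while most constitutive core and regulatory particle rows have a lower value in mdx pool 2 than in mdx pool 3.

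Psme4 was lower in both models. It encodes PA200, a mainly nuclear activator of the core known for ubiquitin-independent degradation of acetylated histones. Psme4 (ENSMUSG00000040850, chr11:30771726-30880361) had 46.96, 41.8 and 59.0 FPKM in the mdx pools and 44.4 and 51.8 FPKM in the dy2J pools, against 86.2, 79.4 and 72.4 FPKM in the WT pools. Every pool of either model lay below every WT pool. The log2 fold change was -0.69 ± 0.14 in mdx (limma adjusted p = 0.00624) and -0.71 ± 0.16 in dy2J (limma adjusted p = 0.0163), where 12.8% and 9.04% of all genes tested were lower. The authors' deposited table gives q = 0.000749 for Psme4 in both comparisons. The dy2J call for Psme4 did not hold without dy2J pool 1 (limma adjusted p = 0.148) or without WT pool 1 (0.0501). With the replicate block the dy2J call for Psme4 was also lost. Of the 10 mature fibre markers, 4 were lower in mdx and 7 were lower in dy2J, and their part in the lower Psme4 was not tested.

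The other nuclear activator, Psme3 (PA28 gamma), averaged 25.8 ± 1.08 FPKM in mdx and 25.9 ± 2.12 FPKM in dy2J, against 26.4 ± 0.126 FPKM in WT. Its log2 fold change was -0.03 ± 0.09 in mdx (limma adjusted p = 0.803) and -0.03 ± 0.10 in dy2J (limma adjusted p = 0.861). Psme4 was thus at 1.83, 1.68 and 2.19 times Psme3 in the mdx pools and 1.82 and 1.89 times in the dy2J pools, against 3.26, 2.995 and 2.75 times in the WT pools. Psmf1, an inhibitor of the core, averaged 7.72 ± 1.27 FPKM in mdx and 6.96 ± 0.595 FPKM in dy2J, against 7.98 ± 1.03 FPKM in WT, and was not called.

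Of the 7 assembly chaperones, Psmg3 was higher in both models and no other was called against WT. Over all genes tested, 36.7% were called in mdx and 20.6% in dy2J. Psmg3 (ENSMUSG00000029551, chr5:139823592-139826885), which pairs with Psmg4 to help build the alpha ring, had 7.41, 6.72 and 6.39 FPKM in the mdx pools and 6.82 and 7.48 FPKM in the dy2J pools, against 4.30, 5.58 and 4.29 FPKM in the WT pools. All pools of both models lay above the WT pools, with log2 fold changes of 0.46 ± 0.11 in mdx (limma adjusted p = 0.0137) and 0.52 ± 0.13 in dy2J (limma adjusted p = 0.0241). The mdx call was lost without WT pool 3 (limma adjusted p = 0.0541) and with quantile normalization (0.103), and the dy2J call without any 1 of dy2J pool 1, dy2J pool 2, WT pool 1 or WT pool 3 (0.0701 to 0.132), without an expression minimum (0.0532) and with quantile normalization (0.0539). With the replicate block the dy2J call for Psmg3 was also lost. The authors' deposited table gives q of 0.534 in mdx and 0.545 in dy2J. Psmg3 overlaps Gm26938 on the same strand over 2816 bases, so its level is uncertain.

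Psmg4 (ENSMUSG00000071451, chr13:34162964-34178172), the partner of Psmg3, had 9.65 and 7.96 FPKM in the dy2J pools, against 13.8, 12.8 and 15.9 FPKM in the mdx pools. Both dy2J pools also lay below the WT pools, at 13.002, 11.1 and 12.02 FPKM. The log2 fold change was -0.63 ± 0.13 in dy2J against mdx (limma adjusted p = 0.0254), where 3.66% of all genes tested were lower, and -0.42 ± 0.13 in dy2J against WT (limma adjusted p = 0.0505). The difference from WT was called under 9 of 18 alternatives (limma adjusted p of 0.0279 to 0.049). The call against mdx did not hold without mdx pool 3, dy2J pool 1 or dy2J pool 2 (limma adjusted p of 0.0515 to 0.192), nor with the compared groups alone (0.0725) or without an expression minimum (0.0546). Of the regulatory particle chaperones, Psmd5 averaged 12.1 ± 3.38 FPKM in mdx and 12.9 ± 0.784 FPKM in dy2J, against 8.40 ± 0.381 FPKM in WT (limma adjusted p = 0.0584 in mdx and 0.0562 in dy2J). Psmd10 was at 0.42 in mdx (limma adjusted p = 0.0539), and Psmd9, Psmg1 and Psmg2 were at 0.04, 0.06 and 0.18. Psmc3ip, which overlaps 385 bases of Mlx, had 2.18, 2.61 and 2.16 FPKM in the mdx pools and 2.10 and 1.94 FPKM in the dy2J pools, against 1.52, 1.59 and 1.51 FPKM in the WT pools. Its log2 fold change was 0.38 ± 0.10 in mdx (limma adjusted p = 0.0174), a call lost with quantile normalization (0.215) and without WT pool 1 (0.051) or WT pool 3 (0.0574), and 0.25 ± 0.11 in dy2J (limma adjusted p = 0.147).

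Of 13 tested genes outside the family name that make, mature or bind the proteasome, 1 was higher and 2 were lower in mdx, where 36.7% of all genes tested were called. In dy2J 1 was higher and 3 were lower, where 20.6% of all genes were called, and 1 was lower in dy2J against mdx, where 6.43% were. AI314180, named Ecpas in the reference and known as the proteasome adaptor Ecm29, had 56.5, 56.9 and 73.7 FPKM in the mdx pools and 54.7 and 59.8 FPKM in the dy2J pools, against 110, 98.1 and 87.3 FPKM in the WT pools. All pools of both models lay below all WT pools, with log2 fold changes of -0.65 in mdx (limma adjusted p = 0.0064) and -0.77 in dy2J (limma adjusted p = 0.0105). For AI314180 the authors' deposited table gives q = 0.146 in mdx and 0.0997 in dy2J, neither under 0.05. Pomp, the maturation factor of the core, had 94.5, 85.4 and 128 FPKM in the mdx pools and 89.8 and 93.9 FPKM in the dy2J pools, against 77.2, 70.8 and 67.3 FPKM in the WT pools. It was higher in mdx by 0.49 (limma adjusted p = 0.0306) and at 0.35 in dy2J (limma adjusted p = 0.162), although no pool of either model overlapped the WT pools.

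Nfe2l1, the factor that drives proteasome genes when proteolysis falls short, was not called, at -0.12 in mdx (limma adjusted p = 0.468) and 0.30 in dy2J (limma adjusted p = 0.141). Ddi2, the protease that activates Nfe2l1 protein, was lower in dy2J than in WT, with a log2 fold change of -0.50 (limma adjusted p = 0.0249), and lower than in mdx, at -0.80 (limma adjusted p = 0.00992). Of the other calls in dy2J against WT, Zfand5, a proteasome-stimulating zinc finger protein, was at -0.73 and Akirin2, a nuclear import factor of proteasomes in human cells, at 0.61. Among 14 tested ubiquitin genes, activating enzymes and shuttle factors, 1 was higher and 3 were lower in mdx, and 1 was higher in dy2J. Over all genes tested, 36.7% were called in mdx and 20.6% in dy2J. Rps27a, a fusion of ubiquitin and a ribosomal protein, was higher in both models, at 0.74 in mdx (limma adjusted p = 0.00101) and 0.41 in dy2J (limma adjusted p = 0.0319). The activating enzyme Uba1 was not called, at 0.04 in mdx and -0.05 in dy2J.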

How the data were processed

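Per the file headers, the deposited table gives the FPKM of each gene in each library and, for both models against WT, the p-value and q-value that the authors obtained. Cuffdiff, Cuffnorm, Cufflinks 2.2.1, TopHat2 2.0.13, Trim Galore 0.3.7, bcl2fastq 2.15.0.4 and the build GRCm38 are named in the submitters' processing notes. The scaling between libraries and the use of strand are not given in the sources used here. Libraries were grouped by their labels.

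From the deposited FPKM, log2(FPKM + 1) was fitted with limma 3.58.1 in R 4.3.3, with all 8 libraries in 1 model with a term per genotype and a mean-variance trend. The 12830 genes that reached 1 FPKM in 2 or more libraries were kept, and two-sided p-values were adjusted by the Benjamini-Hochberg method over all of them, with a threshold of 0.05. The fit was run on simulated libraries with independent noise of the same spread for every gene. That run checks the code and does not measure the error rate in these data. Nothing says that the pools were prepared apart, so p-values measure the spread between libraries, which may be partly technical.

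Every member could be named. Values in every pool are given for the inducible, PA28 and constitutive catalytic genes and for the called members, and of each pathway list at most 4 called genes with the largest change were named in a comparison, besides Nfe2l1 and Uba1, which were chosen after their values were seen. The members and lists were chosen with earlier results of these data known. Shared 50-base stretches were counted in GENCODE M21 transcripts. Promoter windows came from RefSeq (GRCm38.p6). Alternatives were other pseudocounts and minimums, quantile normalization, rescaling by the median ratio, the compared groups alone, no trend, values of 0 as missing, a replicate block and leaving out each library.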

Additional observations from a re-analysis of the deposited data

How the results depend on the processing

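Of 699 refits of 13 named genes over 18 alternatives, 628 kept direction and side of the threshold, 31 lost the call, 18 gained one and 22 changed sign. All 13 are family members. The calls of the pathway lists and cell type markers were not followed over the alternatives, so how firm they are is unknown. The mdx calls of Psmb8, Psmb9, Psmb10, Psmb5, Psma5 and Psme4, and the dy2J call of Psmb9, held in all 18. Leaving out each library in turn gave 6 to 15 called members in mdx against WT (8 with all), 1 to 7 in dy2J against WT (5 with all) and 0 to 2 in dy2J against mdx (1 with all). The 1 in dy2J against WT, Psmb9, came without dy2J pool 1, 2 came without WT pool 1, and 3 came without dy2J pool 2, WT pool 2 or WT pool 3. In dy2J against mdx 0 came without mdx pool 3, dy2J pool 1 or dy2J pool 2, and 2 came without mdx pool 1. A lone dy2J pool is assumed to vary like the other groups. In dy2J against WT, 3 members were called without an expression minimum and 8 with quantile normalization or with the compared groups alone. In dy2J against mdx, 0 were called without a minimum or with the compared groups alone, and 2 at a mean of at least 5 FPKM, with quantile normalization or with values of 0 as missing. Quantile normalization moved the median of all genes in mdx against WT by -0.15 and gave 12 called members there. The cause of these shifts was not tested. Pool numbers are not said to pair the libraries. Deviations of same-numbered pools from their group means correlated at -0.15 to 0.08. This cannot decide whether pools were paired, since the deviations within a group sum to 0. With the replicate block 2 members, Psmb9 and Psme2, were called in dy2J against WT. The sign changes all concern uncalled differences. Under the median ratio they were Psme1 in mdx against WT at -0.011, and in dy2J against mdx Psmb10 at 0.013, Psme1 at 0.059 and Psme4 at 0.065. Under quantile normalization they were Psmb6 in dy2J against WT at 0.044 and Psmb10 in dy2J against mdx at 0.0041. With the replicate block they were Psmb6 in dy2J against WT at 0.041 and Psme4 in dy2J against mdx at 0.013. Leaving out a library gave -0.018 to 0.20 for Psme1 in mdx against WT, -0.064 to 0.044 for Psmb6 and -0.042 to 0.15 for Psme1 in dy2J against WT. In dy2J against mdx it gave -0.22 to 0.084 for Psmb10, -0.23 to 0.020 for Psmb7, -0.14 to 0.072 for Psme1, -0.091 to 0.26 for Psme2, -0.13 to 0.11 for Psme4 and -0.0015 to 0.12 for Psmg3. Without counts the depth behind a value is unknown.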
